A study of Homo sapiens with 62 samples.

Results

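The 6 genes of the plasminogen activation system described here were followed through metabolically labelled RNA of pancreatic cancer cells: the activators PLAT and PLAU, the receptor PLAUR, the inhibitors SERPINE2 and SERPINB2, and the cell-surface protein ANXA2. They were taken by gene name, and all 6 were found among the 29794 genes counted in both lines. The set was chosen by the response to KLF5 degradation in these libraries, above all the difference between lines in PLAT. Values after degradation are therefore given as a description, without a test, and the tests below are those on the other treatments and on the untreated lines.

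Plasminogen circulates as an inactive zymogen and is cut to plasmin, a broad serine protease, by tissue-type plasminogen activator (encoded by PLAT) or by urokinase (PLAU). Urokinase is held at the cell surface by its receptor, PLAUR, while serpins trap the activators in inactive complexes. SERPINE2, or protease nexin-1, acts on thrombin, urokinase and tissue-type activator, SERPINB2 is plasminogen activator inhibitor type 2, and annexin A2, encoded by ANXA2, binds plasminogen and tissue-type activator on the membrane and is a known tissue-type activator receptor of pancreatic cancer cells.

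SLAM-seq libraries came from AsPC-1, a classical-subtype line of pancreatic ductal adenocarcinoma, and from T3M-4, a basal-like line. In every group of both lines, solvent controls included, the cells carried an FKBP12-F36V-FLAG-KLF5 transgene in place of endogenous KLF5, which had been disrupted with a guide RNA. The lines were selected pools and not single clones. The dTAG libraries (10 of AsPC-1, 4 of T3M-4) received the degrader dTAGv-1 for 4 h, and the NEG libraries (10 and 4) dTAGv-1-NEG, a version that does not degrade. The RUVBL1/2 ATPase inhibitor CB-6644 was given for 4 h (5 and 4 libraries) and, in AsPC-1, for 12 h (4 libraries). NVP-2, an inhibitor of the elongation kinase CDK9, was given for 4 h (4 and 4 libraries). Solvent was DMSO for 4 h (5 and 4 libraries) or, in AsPC-1, 12 h (4 libraries). Replicate numbers such as 1.2 give the experiment first, and the labels place the libraries in 2 batches. Libraries of 1 experiment may share a culture, in which case the p-values measure the spread among libraries and are too small.

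Cells took up 4-thiouridine for 2 h before harvest, so that RNA made in that window yields reads with T>C conversions. T>C CPM is the level of such reads of a gene relative to all T>C reads of the library after TMM scaling, and the labelled share is the percentage of a gene's own reads that carry a conversion. T>C totals ran from 2240998 to 18311982 reads over the 42 AsPC-1 libraries and from 3714015 to 27982537 over the 20 of T3M-4, with totals of all reads from 82676553 to 200298262 and from 111132257 to 244524608. CPM is relative to the other new RNA of the same library. Setting T>C counts against all reads instead shifted the median gene by -0.26 on the log2 scale for dTAG in AsPC-1, by -0.22 for CB-6644 at 4 h in AsPC-1, by 0.17 between lines, by 0.33 for the line difference of the dTAG effect and far more under NVP-2, as given with it. With no spike-in, fewer labelled cells and less new RNA per cell cannot be told apart. In CPM of all reads, epithelial markers summed to 3410 to 11500 in AsPC-1 and to 921 to 2530 in T3M-4. Basal markers summed to 10.2 to 58.1 and to 1990 to 5420 in the same order. Classical markers summed to 49.1 to 245 and to 30.8 to 89.7, so they overlapped between the lines. Fibroblast markers summed to 2.29 to 19.2 and to 5.24 to 9.51. Endothelial markers reached at most 0.0889 and 1.42, and the leukocyte markers PTPRC, CD3E and LYZ at most 1 and 0.438. KLF5 itself had T>C log2 fold changes after dTAG of 0.60 ± 0.11 (SE) in AsPC-1 and 0.90 ± 0.15 in T3M-4. The degrader acts on protein, so RNA counts do not check the degradation.

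The counted 3′UTRs differ in length and in T content, so neither CPM nor labelled share is compared between genes. On GRCh38 with GENCODE v44, PLAT (ENSG00000104368.19) lies on the minus strand of chromosome 8 from 42174718 to 42207709, with 2326 bases of 3′UTR exon, 23.5% of them T. PLAU (ENSG00000122861.16) is on the plus strand of chromosome 10 from 73909177 to 73917496, with 934 bases of 3′UTR between 73916563 and 73917496. PLAUR (ENSG00000011422.12) is on the minus strand of chromosome 19 from 43646095 to 43670547, with 1512 bases. SERPINE2 (ENSG00000135919.14) is on the minus strand of chromosome 2 from 223975045 to 224039318, with 825 bases, and SERPINB2 (ENSG00000197632.9) on the plus strand of chromosome 18 from 63871692 to 63903888, with 586 bases. ANXA2 (ENSG00000182718.18) is on the minus strand of chromosome 15 from 60347134 to 60402883, with 1373 bases. Exons of C10orf55 overlap the PLAU 3′UTR on the other strand, and ANXA2 shares sequence with processed pseudogenes, so reads of both carry an uncertainty that the tables do not resolve. Every PLAU count of T3M-4 was a multiple of 2. This does not alter its fold changes but makes its counting error larger than its counts imply. Most PLAU T>C counts of AsPC-1 were even as well, with 22, 10, 46 and 26 after NVP-2, so the same caution applies to them.

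Some AsPC-1 libraries stood apart. Of the 42, 5 (NEG 3.2, dTAG 3.2, DMSO 12 h 2, CB-6644 12 h 2 and NVP-2 1.2) held 695 to 1177 T>C reads of 57 genes that are read in T3M-4 and not in AsPC-1 DMSO, against at most 14 in the other AsPC-1 libraries and 145744 to 433089 in the T3M-4 libraries without NVP-2. The source of these reads was not tested. Clustering on the 500 most variable genes placed the AsPC-1 libraries in sets of 23, 17 and 2, with both large sets present within experiments 1 and 3 of dTAG and NEG alike.

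KLF5 is a zinc-finger factor of the KLF and SP family, which binds GC-rich boxes and CACCC boxes. The promoters of the members other than PLAT, from 250 bases before to 50 after a RefSeq start on GRCh38.p14, were searched on both strands for GGGNGNGG, a string of letters that covers such boxes, and for GGGNGTGG, which is contained in it. GGGNGNGG occurred in 56.2% of 35116 promoters and GGGNGTGG in 17.2%, so a match is common. The 30 bases around the match nearest the start are shown for each member that had one. Binding of KLF5 to them was not tested here. Each is written 5′ to 3′ on the strand of its gene, with the match in capitals.
ANXA2, chr15:60397991-60398020, minus strand: gggtataaaagCCCCACCCaggccagccgg
PLAU, chr10:73911065-73911094, plus strand: cgggcgggagaGGGAGGGGcggcgccgggg
PLAUR, chr19:43670249-43670278, minus strand: gtacgggaggaGGGGGAGGcgcccacgcat
SERPINB2, chr18:63887648-63887677, plus strand: aaatgccatgtGGGAGGGGcaaagctgtat
SERPINE2, chr2:224031440-224031469, minus strand: ttaggaggaaaGGGAGTGGagaggaccgtg
The ANXA2 promoter held 7 matches, of which the one shown is read on the opposite strand and begins 23 bases before the start. PLAU, PLAUR and SERPINB2 held 2 each, and SERPINE2 held 1, which begins 20 bases after its start and is the only one of those counted that also holds GGGNGTGG. The other annotated start of PLAU and that of SERPINE2 had 0 matches. A match describes letters only.

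PLAT, tissue-type plasminogen activator, was the member with the largest difference between dTAG and NEG in AsPC-1, the difference it was chosen by. Its T>C CPM in the 10 NEG libraries ran from 134.9 through a median of 267 to 418, and in the 10 dTAG libraries from 52.4 through 62.8 to 93.2. No dTAG library reached the lowest NEG library. The fitted log2 fold change was -2.09 ± 0.18 (SE). Its labelled share was 8.79 ± 2.14% (SD, n = 10) in NEG and 2.62 ± 0.684% (SD, n = 9) in dTAG, again without overlap, since NEG libraries ran from 5.58 to 11.7% and dTAG libraries from 1.89 to 4.04%. All reads, which also hold RNA made before treatment, moved less, with a log2 fold change of -0.54 ± 0.12.

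The size of the PLAT difference varied between experiments. In experiment 1 the 4 NEG libraries had 255 to 270.3 T>C CPM and the 4 dTAG libraries 60.1 to 65.2, a log2 fold change of -2.06 ± 0.10. In experiment 2 NEG had 134.9 and 184 and dTAG 93.2 and 90.7, with a log2 fold change of -0.76 ± 0.18. In experiment 3 NEG had 351 to 418 and dTAG 52.4 to 71.0, with -2.71 ± 0.17. NEG levels differed between experiments more than dTAG levels did.

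In T3M-4 the PLAT difference was smaller. NEG libraries had 146, 182, 93.5 and 107 T>C CPM and dTAG libraries 126, 134, 77.8 and 92.5, so that the groups overlapped, while each dTAG library lay below the NEG library of the same number (4 of 4). The log2 fold change was -0.30 ± 0.26, with -0.32 ± 0.23 in experiment 1 and -0.24 ± 0.19 in experiment 2, and it was -0.29 ± 0.12 with the replicate numbers as a block. Labelled shares were 11.9, 14.3, 16.2 and 17.8% in NEG and 13.8, 12.5, 15.01 and 15.1% in dTAG. The line difference of the PLAT response, T3M-4 minus AsPC-1, was 1.81 ± 0.34 on the log2 scale. The same difference was 0.11 ± 0.50 for PLAU, 0.33 ± 0.34 for PLAUR, 0.17 ± 0.49 for SERPINE2 and 0.05 ± 0.23 for ANXA2, so that among the members with reads in both lines PLAT had the widest line difference, as its selection fixed. Without the libraries that hold T3M-4 reads it was 1.70.

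**Figure D1:**
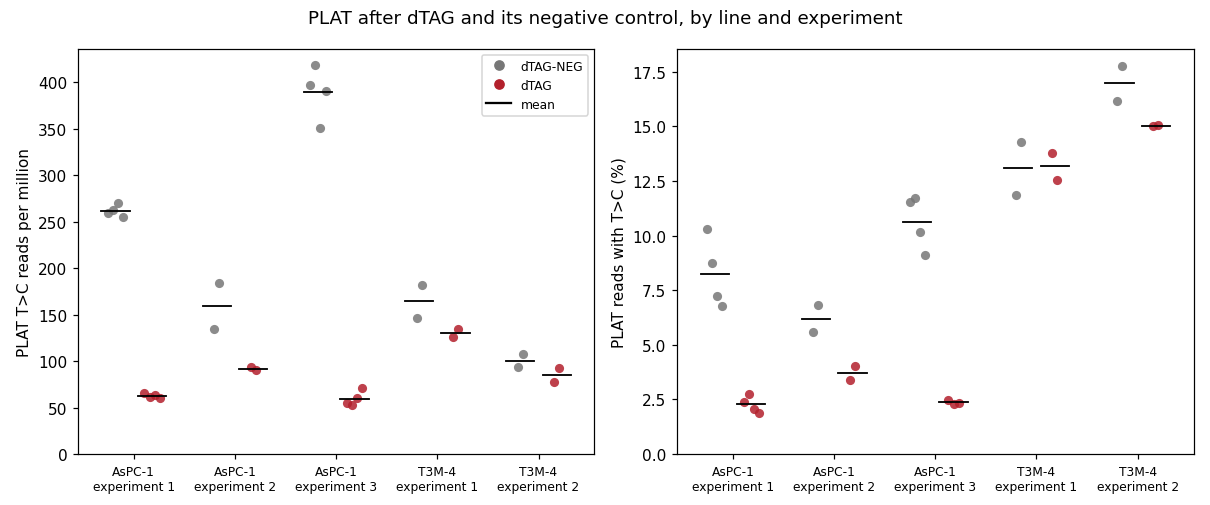
PLAT T>C CPM (left) and labelled share in percent (right) in each NEG (grey) and dTAG (red) library, by line and experiment, with bars at the mean. In AsPC-1 every dTAG library lies below every NEG library, from 52.4 to 93.2 against 134.9 to 418 CPM, while in T3M-4 the 2 groups overlap.

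Under CB-6644 the PLAT T>C CPM of AsPC-1 was 427, 354, 247, 199.5 and 211 in DMSO and 209, 159, 206, 107 and 154 after 4 h, so the groups overlapped. The log2 fold change of -0.80 ± 0.25 did not pass the test over all genes (adjusted p = 0.98, edgeR quasi-likelihood with Benjamini-Hochberg adjustment). Its labelled share did fall, from 14.2, 12.9, 8.11, 7.80 and 7.14% in DMSO to 5.83, 4.07, 4.42, 4.25 and 5.28%, without overlap. On the log2 scale the odds of a labelled read changed by -1.11 ± 0.21 (adjusted p = 0.0236). The call was lost, with adjusted p from 0.0511 to 0.0766, when any 1 of CB-6644 1.2, 1.3, 2.1 or 2.2 or DMSO 1.2 was left out. The labelled share of all reads of a library also differed between these groups, with 10.1 ± 0.624% (SD, n = 5) in DMSO and 8.51 ± 0.254% (SD, n = 5) after CB-6644, and its part in the PLAT value was not tested. At 12 h PLAT had 444, 304, 309 and 399 T>C CPM in DMSO and 396, 311, 294 and 281 after CB-6644, and in T3M-4 at 4 h it had 187, 142, 79.7 and 84.6 in DMSO against 169, 169, 63.0 and 74.4.

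After NVP-2 PLAT did not pass the test as a part of new RNA. In AsPC-1 it had 238, 153, 407 and 210.4 T>C CPM, of which 153 lay below every DMSO library, with a log2 fold change of -0.06 ± 0.33 (adjusted p = 0.903), and in T3M-4 226, 261, 78.3 and 129, with 0.57 ± 0.43 (adjusted p = 0.35). The labelled share of whole libraries dropped at the same time, from 10.1 ± 0.624% (SD, n = 5) to 1.57 ± 0.239% (SD, n = 4) in AsPC-1 and from 12.4 ± 1.56% to 2.24 ± 0.417% (SD, n = 4 each) in T3M-4. T>C counts set against all reads instead of T>C reads move the log2 change of the median gene by -3.03 for AsPC-1 and by -2.86 for T3M-4, and PLAT then stood at -3.08 and -2.21. The labelled share of PLAT itself fell to 1.07, 0.972, 1.12 and 0.683% in AsPC-1 and to 2.30, 2.87, 1.28 and 2.11% in T3M-4, a change in log2 odds of -3.49 ± 0.27 and -2.88 ± 0.31 beside a median of -3.35 and -3.54 over all genes. In AsPC-1 the NVP-2 libraries belong to batch 2 and DMSO at 4 h to batch 1, so batch and agent cannot be told apart in that contrast.

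Between the untreated lines, PLAT T>C CPM was lower in T3M-4, with 79.7 to 187 against 199.5 to 427 in AsPC-1. The log2 difference was -1.19 ± 0.32 (adjusted p = 0.0104) for T>C reads and -1.43 ± 0.29 (adjusted p = 0.00156) for all reads. With batch 1 libraries alone it was -0.82 for T>C reads (adjusted p = 0.0886), and with T>C counts set against all reads -0.98 (adjusted p = 0.0587), past the threshold in neither. Ordered by mean T>C CPM, the AsPC-1 groups ran from DMSO 12 h through CB-6644 12 h, NEG, DMSO 4 h, NVP-2 and CB-6644 4 h to dTAG, and dTAG was the only group whose libraries did not overlap with those of its neighbour. All neighbours overlapped in T3M-4, where the order was NVP-2, NEG, DMSO, CB-6644 and dTAG.

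**Figure D2:**
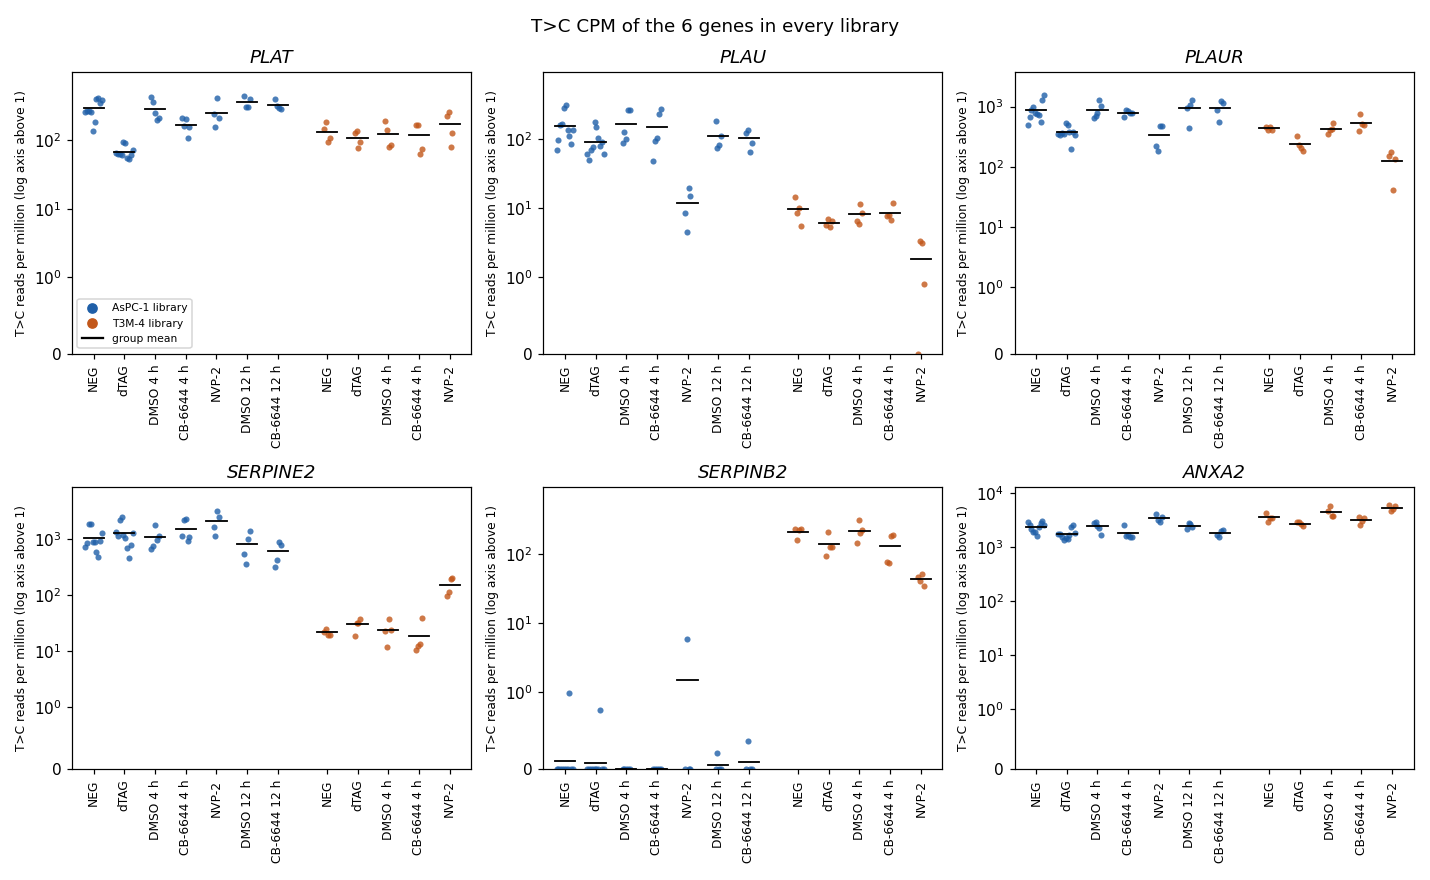
T>C CPM of the 6 genes in every library (points, AsPC-1 blue, T3M-4 orange) with the group mean (bar), on an axis that is logarithmic above 1 and linear below it. PLAU and SERPINE2 are higher in AsPC-1, SERPINB2 is near 0 in AsPC-1, and PLAU is lowest after NVP-2 in both lines.

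PLAU, urokinase, was higher in AsPC-1. DMSO libraries of AsPC-1 had 88.8, 126, 100.4, 265 and 264 T>C CPM and those of T3M-4 6.64, 5.88, 11.4 and 8.66, without overlap, and the line difference was -4.34 ± 0.43 (adjusted p = 1.25e-05). All reads gave -3.84 ± 0.49 (adjusted p = 7.97e-05), while the labelled share did not differ detectably (log2 odds -0.67 ± 0.31, adjusted p = 0.195).

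After dTAG, PLAU in AsPC-1 ran from 49.5 through a median of 78.6 to 178 T>C CPM, against 71.0 through 135.9 to 315 in NEG, so that the groups overlapped. The log2 fold change was -0.74 ± 0.27, and -0.69 ± 0.13 with the replicate numbers as a block. All PLAU reads gave -0.55 ± 0.35, and the labelled share was 26.9 ± 5.87% (SD, n = 9) against 35.9 ± 3.25% (SD, n = 10). Its log2 odds changed by -0.63 ± 0.14, beside a median of -0.33 over all genes. In T3M-4 NEG had 14.5, 8.59, 10.1 and 5.44 T>C CPM and dTAG 5.69, 7.10, 5.36 and 6.55, with a log2 fold change of -0.65 ± 0.32 in T>C reads and -0.57 ± 0.20 in all reads. The PLAU value was thus similar in size in both lines, at a far lower level in T3M-4.

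Among the members, PLAU had the largest fitted change in labelled odds after NVP-2 in both lines. Its T>C CPM was 8.60, 4.56, 19.9 and 15.1 in AsPC-1, below every DMSO library, and the change was -3.68 ± 0.51 (adjusted p = 0.00043). With batch 2 libraries as controls the change was -3.06 against DMSO 12 h and -3.08 against NEG of experiment 3. In T3M-4 it had 0, 3.31, 3.102 and 0.91, and -2.06 ± 0.84 did not pass the test in edgeR (adjusted p = 0.0948) but did in DESeq2 (adjusted p = 0.0218). Labelled shares ran from 26.2 to 45.8% in AsPC-1 DMSO and from 0.536 to 0.854% after NVP-2, and from 17.99 to 32.7% and 0 to 1.76% in T3M-4. The log2 odds changed by -6.34 ± 0.34 and -5.82 ± 0.88, further than those of the median gene. All PLAU reads did not pass the test in either line (-1.11 ± 0.50, adjusted p = 0.181, and 0.18 ± 0.18, adjusted p = 0.682). PLAU after CB-6644 for 4 h overlapped its controls in AsPC-1 (49.3, 94.9, 105, 232 and 274 T>C CPM) and T3M-4 (7.79, 7.91, 6.71 and 11.8), and at 12 h it had 125, 139, 65.4 and 88.1 against 182, 73.9, 83.2 and 111 in DMSO. Its labelled share in AsPC-1 after 4 h of CB-6644 was 23.4, 21.3, 25.2, 25.7 and 25.0%, below all 5 DMSO libraries at 4 h. It did not pass the test (log2 odds -0.79 ± 0.22, adjusted p = 0.0884).

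PLAUR, the urokinase receptor, had lower values after dTAG in both lines. In AsPC-1 NEG libraries ran from 496 through a median of 775 to 1574 T>C CPM and dTAG libraries from 195 through 357 to 532, with overlap at the edge only. The log2 fold change was -1.20 ± 0.19 for T>C reads and -1.001 ± 0.20 for all reads. By experiment it was -1.11, -0.57 and -1.67. In T3M-4 NEG had 462, 413, 454 and 412 and dTAG 324, 225, 206 and 183, without overlap, with -0.90 ± 0.20 for T>C reads and -0.50 ± 0.18 for all reads. Labelled shares went the same way, from 36.7 ± 4.05% (SD, n = 10) to 26.8 ± 2.1% (SD, n = 9) in AsPC-1 and from 31.1 ± 3.38% to 24.7 ± 3.09% (SD, n = 4 each) in T3M-4. The log2 odds changed by -0.66 ± 0.10 and -0.47 ± 0.16, beside medians of -0.33 and 0.08 over all genes.

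NVP-2 lowered PLAUR in both lines. AsPC-1 DMSO libraries had 638, 707, 793, 1276 and 1006 T>C CPM and NVP-2 libraries 218, 184, 468 and 481, without overlap, a change of -1.25 ± 0.34 (adjusted p = 0.0159), and of -1.29 and -1.41 against the batch 2 controls. T3M-4 had 348, 404, 429 and 541 in DMSO and 151, 177, 40.3 and 135 after NVP-2, a change of -1.70 ± 0.41 (adjusted p = 0.0121), though experiment 2 alone did not pass (-2.42, adjusted p = 0.0588). The line difference of this effect did not pass the test (-0.47 ± 0.54, adjusted p = 0.786). Labelled shares after NVP-2 were 3.84, 3.62, 3.02 and 2.99% in AsPC-1 and 3.16, 2.23, 0.377 and 1.36% in T3M-4, with log2 odds of -4.28 ± 0.20 and -5.09 ± 0.58. All PLAUR reads did not pass the test in either line (-0.68 ± 0.35 and -0.18 ± 0.23).

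CB-6644 gave PLAUR 673, 893, 846, 778 and 771 T>C CPM in AsPC-1 and 389, 755, 514 and 503 in T3M-4, each overlapping its controls. At 12 h PLAUR had 873, 550.1, 1242 and 1167 against 934, 443, 1076 and 1265 in DMSO, also overlapping. PLAUR was lower in T3M-4 than in AsPC-1 in DMSO by T>C reads (-1.01 ± 0.22, adjusted p = 0.0032), and all reads did not pass the test (-0.58 ± 0.23, adjusted p = 0.0513), but passed it without DMSO 1.1 of AsPC-1 (-0.69, adjusted p = 0.0208) or without DMSO 1.2 (-0.66, adjusted p = 0.0463).

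SERPINE2, protease nexin-1, was another gene of AsPC-1. DMSO libraries of AsPC-1 had 670, 758, 1776, 974 and 1114 T>C CPM and those of T3M-4 23.0, 11.5, 36.5 and 23.9, a line difference of -5.44 ± 0.43 (adjusted p = 2.76e-06) for T>C reads and -5.32 ± 0.34 (adjusted p = 6.74e-07) for all reads. Its labelled share was alike in the lines, at 12.8 ± 1.33% (SD, n = 5) and 12.6 ± 1.92% (SD, n = 4), with a 95% interval of the log2 odds difference from -0.32 to 0.27.

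SERPINE2 and PLAUR levels separated by library set within the AsPC-1 NEG libraries of experiments 1 and 3 and within DMSO at 12 h. Across experiments the sets overlapped, as PLAUR had 1276 T>C CPM in DMSO 2.1 of the first set and 793 in DMSO 1.3 of the second. In experiment 1 the NEG libraries of the first set had 708 to 859 SERPINE2 T>C CPM and those of the second 1831 to 1843, in experiment 3 the values were 477 to 585 and 902 to 1255, and in DMSO at 12 h 362 to 532 and 977 to 1370. PLAUR was 496 to 672 against 872 to 989 in experiment 1 and 550 to 731 against 1268 to 1574 in experiment 3. After dTAG the sets still separated for SERPINE2, with 1142 to 1324 against 2199 to 2499 in experiment 1 and 459 to 698 against 788 to 1263 in experiment 3, but for PLAUR they lay close in experiment 1 (340 to 345 and 351 to 363) and overlapped in experiment 3 (195 to 381 and 339 to 375). PLAT did not separate this way, with 260 to 263 against 255 to 270.3 in experiment 1. The clustering used these libraries' own genes, so the differences describe the sets and are not tested. Since CB-6644 1.2 fell in the second set and DMSO 1.2 in the first, the AsPC-1 SERPINE2 value under CB-6644 for 4 h was 0.51 ± 0.32 in the fit as designed and 0.25 ± 0.14 once set and experiment entered as a block, past the threshold in neither.

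**Figure D3:**
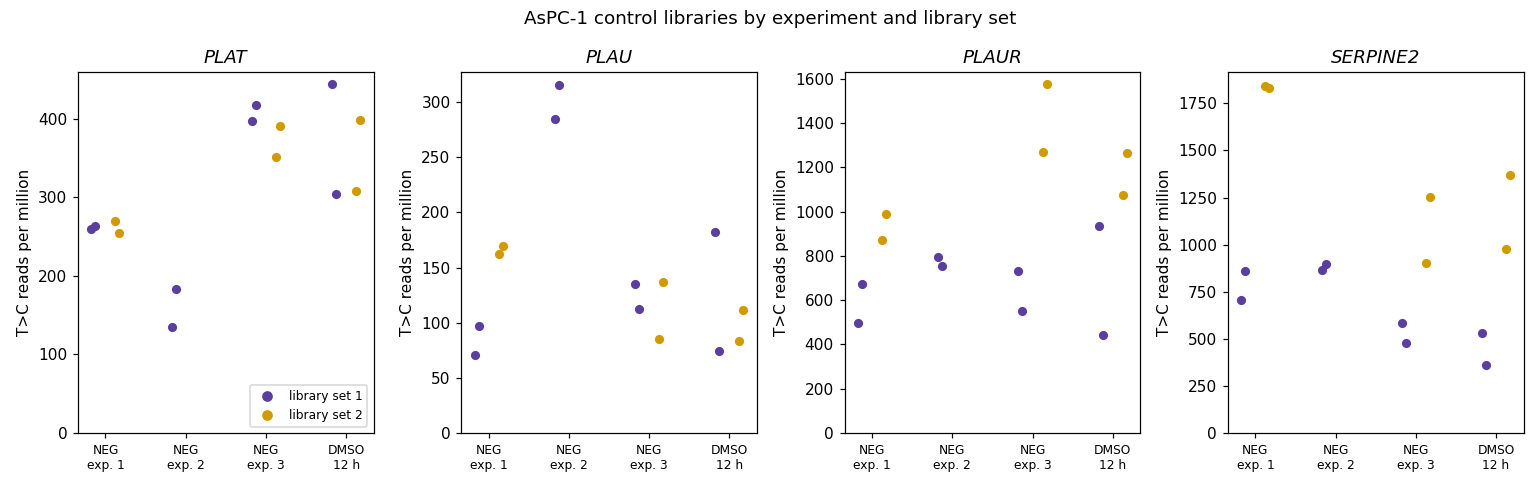
T>C CPM of PLAT, PLAU, PLAUR and SERPINE2 in the AsPC-1 control libraries, by experiment and by library set (first set purple, second set yellow). SERPINE2 and PLAUR are higher in the second set within experiments 1 and 3, and PLAT is not.

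After dTAG, SERPINE2 in AsPC-1 ran from 459 through 1153 to 2499 T>C CPM against 477 through 880 to 1843 in NEG, with a log2 fold change of 0.32 ± 0.28. In T3M-4 NEG had 21.6, 24.7, 19.4 and 19.4 and dTAG 18.6, 31.4, 31.8 and 37.6, with 0.48 ± 0.23. The groups overlapped in both lines. All reads gave 0.14 ± 0.31 and 0.21 ± 0.15.

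CB-6644 did not pass the test for SERPINE2 in any contrast. AsPC-1 libraries had 1109.9, 2178, 2244, 908 and 1099.9 T>C CPM at 4 h and 316, 427, 892 and 793 at 12 h, where DMSO had 532, 362, 977 and 1370. T3M-4 libraries had 10.2, 12.34, 13.4 and 38.2, of which replicate 2.2 was the only one above the DMSO median (-0.35 ± 0.45, adjusted p = 0.996), and the labelled share of these libraries was 6.64, 5.69, 7.68 and 15.9% (log2 odds -0.67 ± 0.34, adjusted p = 1).

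SERPINE2 rose after NVP-2 as a part of new RNA in both lines, a direction that reversed when T>C counts were set against all reads (-1.92 in AsPC-1 and -0.21 in T3M-4). AsPC-1 libraries had 1648, 1112, 3158 and 2455 T>C CPM, a change of 1.12 ± 0.35 (adjusted p = 0.0295), and T3M-4 libraries 96.7, 114, 188 and 197, all above DMSO, a change of 2.70 ± 0.41 (adjusted p = 0.00134). The AsPC-1 call was lost, with adjusted p from 0.0516 to 0.0936, when any 1 of DMSO 1.1, 1.2, 2.1 or 2.2 or NVP-2 2.1 or 2.2 was left out, and was kept with batch 2 controls (1.55 and 1.59). NVP-2 2.1 and 2.2, the libraries with 3158 and 2455, fell in the second library set, where SERPINE2 was higher in controls. Of the DMSO libraries at 4 h only DMSO 1.3, with 1776, did so, and the part of the set was not tested. The labelled share of SERPINE2 fell with the smallest fitted change of the members, to 6.28, 3.14, 3.44 and 2.48% in AsPC-1 and to 7.09, 8.32, 6.50 and 7.61% in T3M-4, where DMSO libraries had 13.4, 10.5, 14.9 and 11.8%. The log2 odds changed by -1.97 ± 0.25 (adjusted p = 5.88e-06) and -0.85 ± 0.34 (adjusted p = 0.0354), beside medians of -3.35 and -3.54 over all genes, and the T3M-4 call was lost without DMSO 1.1, 2.1 or 2.2 or NVP-2 1.1 (adjusted p from 0.0608 to 0.104). All SERPINE2 reads did not pass the test (0.00 ± 0.37 and 0.60 ± 0.20, adjusted p = 0.159 in T3M-4). The line difference of the T>C change did not pass either (1.56 ± 0.55, adjusted p = 0.184), and that of PLAU was 1.62 ± 0.86 (adjusted p = 0.429).

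SERPINB2, plasminogen activator inhibitor type 2, was read in T3M-4 and nearly absent from AsPC-1. The 4 DMSO libraries of T3M-4 had 143, 307, 201 and 219 T>C CPM. The 5 DMSO libraries of AsPC-1 at 4 h had 0 T>C reads, so T3M-4 was at least 3920-fold higher, with the AsPC-1 level put at 3 reads over the group. In all reads AsPC-1 DMSO had 5 reads, which gives a ratio of 8350 (95% Poisson interval 3580 to 25700, counting error only). SERPINB2 T>C reads occurred in 5 of the 42 AsPC-1 libraries, and these were the 5 with reads of T3M-4 genes: 16 reads in NEG 3.2, 11 in dTAG 3.2, 3 in DMSO 12 h 2, 6 in CB-6644 12 h 2 and 13 in NVP-2 1.2. No response of SERPINB2 in AsPC-1 is therefore given.

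In T3M-4 SERPINB2 had 234, 159, 221 and 230.1 T>C CPM in NEG and 93.1, 208, 128 and 125 in dTAG, where 1 dTAG library reached into the NEG range, with a log2 fold change of -0.61 ± 0.25 in T>C reads and -0.38 ± 0.28 in all reads. CB-6644 gave 76.9, 74.5, 182 and 191, with -0.72 ± 0.35 (adjusted p = 0.994). NVP-2 lowered SERPINB2 to 46.7, 40.1, 51.2 and 34.6, below every DMSO library, a change of -2.26 ± 0.31 (adjusted p = 0.000813). Its labelled share fell from 30.8, 27.3, 36.0 and 38.3% to 1.93, 1.93, 1.57 and 1.17% (log2 odds -4.90 ± 0.33, adjusted p = 5.71e-07), and all reads did not pass the test (-0.91 ± 0.31, adjusted p = 0.167).

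ANXA2, the plasminogen and tissue-type activator receptor, was read highly in both lines and was higher in T3M-4. DMSO libraries had 2745, 2838, 2431, 2251 and 1695 T>C CPM in AsPC-1 and 4718, 5639, 3674 and 3739 in T3M-4, without overlap, a line difference of 0.92 ± 0.19 (adjusted p = 0.00224), and 0.93 ± 0.19 (adjusted p = 0.00203) in all reads.

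After dTAG, ANXA2 T>C CPM in AsPC-1 ran from 1341 through 1692 to 2522 against 1575 through 2440 to 3067 in NEG, with a log2 fold change of -0.40 ± 0.13, while all reads gave 0.01 ± 0.11. Its labelled share did not overlap, at 2.50 to 3.17% in dTAG and 3.66 to 4.99% in NEG. The log2 odds changed by -0.67 ± 0.07, beside a median of -0.33 over all genes. In T3M-4 NEG had 4163, 2926, 3486 and 3482 and dTAG 2939, 2843, 2620 and 2445, with -0.38 ± 0.16 in T>C reads and -0.07 ± 0.16 in all reads.

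Under CB-6644, a different agent, the labelled share of ANXA2 was called lower in AsPC-1 at 4 h. In AsPC-1 at 4 h T>C CPM was 2530, 1619, 1628, 1557 and 1552, a log2 fold change of -0.44 ± 0.18 that did not pass (adjusted p = 0.98), but the labelled share fell from 5.12 ± 0.367% to 3.28 ± 0.598% (SD, n = 5 each), without overlap (log2 odds -0.69 ± 0.11, adjusted p = 0.0151). The median log2 odds over all genes was -0.27, and the share of whole libraries was lower too, as given with PLAT. Without CB-6644 1.3 or 2.1 or DMSO 1.2 the adjusted p of ANXA2 was 0.0505 to 0.0536. At 12 h ANXA2 had 1689, 1528, 1973 and 2081 T>C CPM against 2187, 2740, 2652 and 2319 in DMSO, without overlap (-0.43 ± 0.17, adjusted p = 0.998), and in T3M-4 3631, 2512, 3081 and 3379, below every DMSO library (-0.49 ± 0.20, adjusted p = 0.994). Neither passed the test over all genes.

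As a part of new RNA after NVP-2, ANXA2 was 4153, 3131, 2846 and 3547 T>C CPM in AsPC-1, a change of 0.65 ± 0.22 (adjusted p = 0.0424) that turned to -2.36 when T>C counts were set against all reads. This call is weak: it was lost without any 1 of DMSO 1.3, 2.1 or 2.2 or NVP-2 1.1, 1.2 or 2.2 (adjusted p from 0.05002 to 0.107) and against both batch 2 controls (adjusted p = 0.0647 and 0.0737). T3M-4 had 5946, 4561, 4969 and 5751, with 0.33 ± 0.25 (adjusted p = 0.362), which likewise turned to -2.58. Labelled shares of ANXA2 fell to 0.528 to 0.790% in AsPC-1 and 0.687 to 1.15% in T3M-4.

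**Figure D4:**
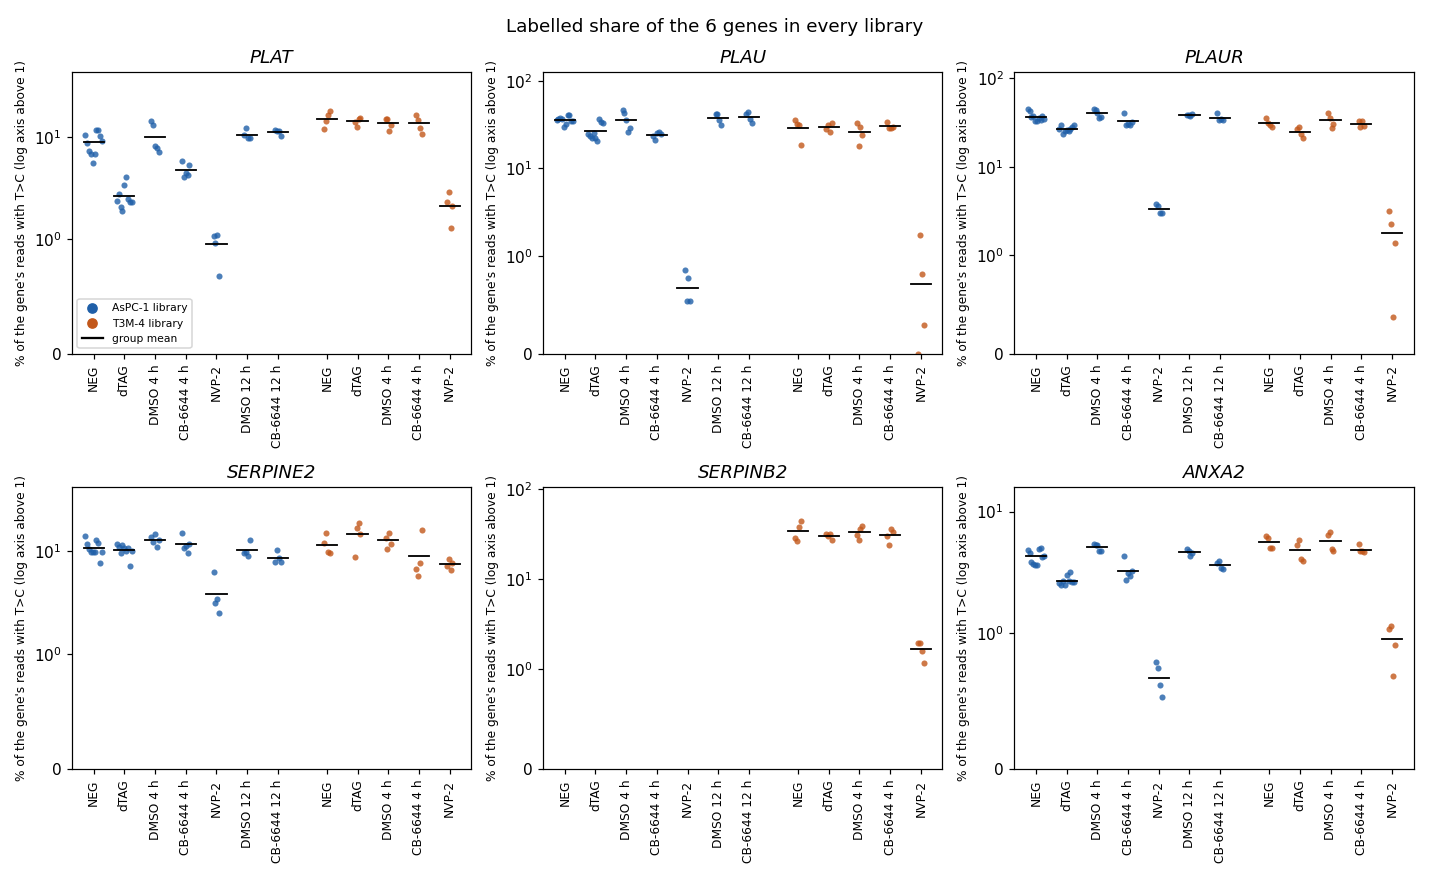
Labelled share, the percentage of a gene's own reads with a T>C conversion, in every library (points, AsPC-1 blue, T3M-4 orange) with the group mean (bar), on an axis that is logarithmic above 1% and linear below it. SERPINB2 is plotted for T3M-4 alone. Shares drop after NVP-2 for every gene, least for SERPINE2, and PLAT is low after dTAG in AsPC-1, at 2.62 ± 0.684%.

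After dTAG, the share of all genes that passed the test is given only as a background to the values above. In AsPC-1 it was 2.4% of 11696 genes in T>C reads, 0.797% in all reads and 31.9% in labelled share. In T3M-4 it was 0.834%, 0.0191% and 0.227%, and for the line difference of the dTAG effect 0.0426%. The members were chosen by these contrasts, so no call of a member is given and nothing is read from these shares.

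CB-6644 called 0 of 5 members in AsPC-1 at 4 h (0% of genes in edgeR, 2 members at an unadjusted p under 0.05, 0 in DESeq2), 0 of 6 in T3M-4 (0%, 1 and 0) and 0 of 5 at 12 h (0%, 1 and 0) in T>C reads. In all reads edgeR called 0 members as well, among 0% of genes in AsPC-1 at 4 h (0 members at an unadjusted p under 0.05), 0.0127% in T3M-4 (1) and 0% at 12 h (0). In labelled share 2 of 5 members were called, PLAT and ANXA2, both lower, in AsPC-1 at 4 h, where 1.41% of all genes were called. T3M-4 had 0 of 6 (0%, 0 at an unadjusted p under 0.05) and 12 h had 0 of 5 (0%, 1). For the line difference of the CB-6644 effect edgeR called 0 of the 5 members with reads in both lines (0% of genes, 0 at an unadjusted p under 0.05 and 0 in DESeq2).

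NVP-2 called 4 of 5 members in AsPC-1, with PLAU and PLAUR lower and SERPINE2 and ANXA2 higher, beside 30.5% of all genes, and 3 of 6 in T3M-4, with PLAUR and SERPINB2 lower and SERPINE2 higher, beside 26.7%. The signs of SERPINE2 and ANXA2 hold for T>C scaling only, as given above. The members' median log2 fold change was -0.06 in AsPC-1 and -0.69 in T3M-4, against -0.05 and -0.12 over all genes. In all reads edgeR called 0 members in each line, beside 11.8% and 5.16% of genes, with 2 at an unadjusted p under 0.05 in each. In labelled share 5 of 5 and 6 of 6 were lower, beside 88.7% and 83.5%, so these counts stand near the background. For the line difference of the NVP-2 effect edgeR called 0 of the 5 members with reads in both lines (0.851% of genes), with 1 at an unadjusted p under 0.05 and 0 in DESeq2. SERPINB2 was called as well, a value that rests on the 13 T>C reads of the AsPC-1 library NVP-2 1.2 (log2 -9.18, adjusted p = 0.0143) and was not called without it (-2.30, adjusted p = 1). Both NVP-2 and CB-6644 at 4 h were compared with the same DMSO libraries, which also carry the line comparison.

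Between lines in DMSO, all 5 members with reads in both lines were called in T>C reads, ANXA2 higher in T3M-4 and 4 lower, beside 48.4% of all genes. In all reads 4 of the 5 were called, 1 higher and 3 lower, beside 55.7%. In labelled share edgeR called 0 of the 5 beside 11.2% of genes, with 2 at an unadjusted p under 0.05. SERPINB2 is left out here, since it had 0 T>C reads in every AsPC-1 DMSO library at 4 h.

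**Figure D5:**
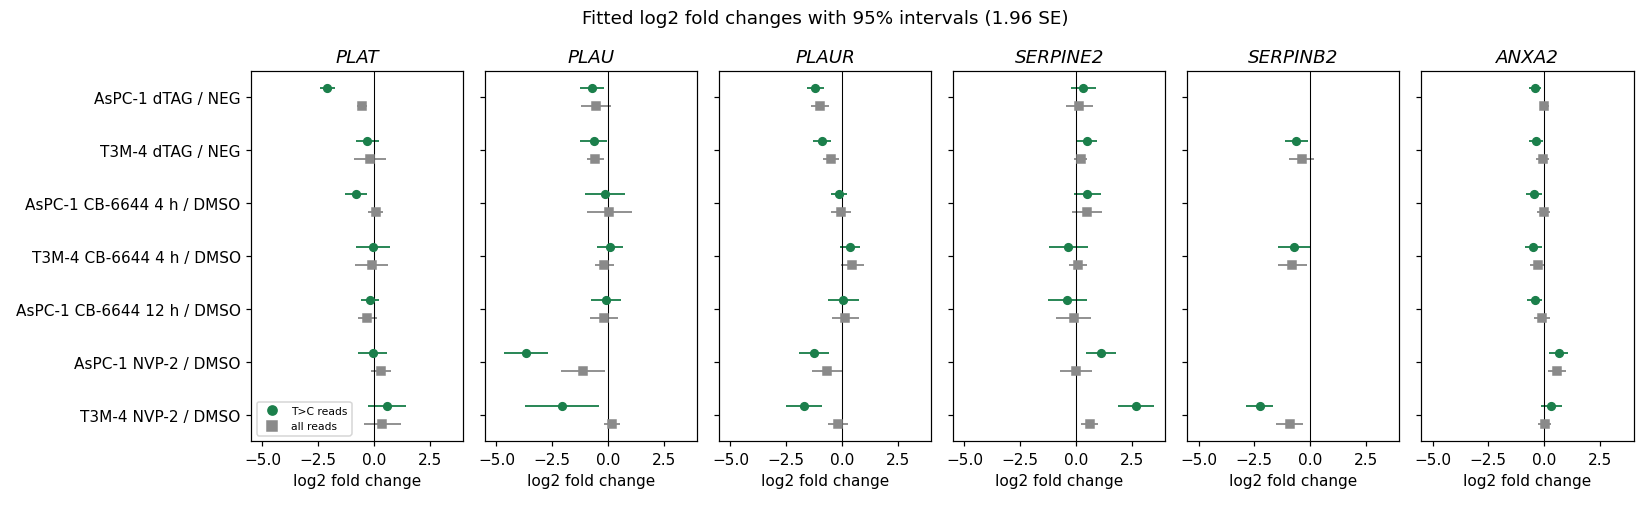
Fitted log2 fold changes of the 6 genes with 95% intervals in each contrast, for T>C reads (green circles) and all reads (grey squares). PLAT after dTAG in AsPC-1 lies at -2.09 in T>C reads and -0.54 in all reads, and after NVP-2 T>C reads of PLAU and PLAUR lie below 0 in both lines.

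Other genes of the system were taken from a list of 26. KLKB1, SERPINA5, SERPINF2 and VTN had 0 T>C reads in all libraries, and plasminogen itself (PLG) 14 in AsPC-1 and 20 in T3M-4, while A2M had 0 and 1, CPB2 1 and 13, and HRG 0 and 77. The zymogen and its plasma inhibitors were thus at the edge of detection in both lines. Between 14 and 18 of the 26 could be tested in a T>C contrast.

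Under NVP-2, 4 of 14 were called in AsPC-1, 3 higher and 1 lower, beside 30.5% of all genes, and 7 of 17 in T3M-4, 6 higher and 1 lower, beside 26.7%. Among those higher as a part of new RNA were CTSB, a cathepsin that can activate pro-urokinase, at 1.91 ± 0.19 and 2.19 ± 0.26, and the clearance receptor LRP1 at 2.26 ± 0.44 and 2.74 ± 0.43 in AsPC-1 and T3M-4, the plasminogen-binding enolase ENO1 at 0.79 ± 0.27 in AsPC-1, and matriptase (ST14) at 2.47 ± 0.40, the integrin chain ITGB1 at 0.95 ± 0.26 and cathepsin L (CTSL) at 1.23 ± 0.39 in T3M-4. All of those named turned below 0 when T>C counts were set against all reads, to -1.07 and -0.72 for CTSB, -0.73 and -0.27 for LRP1, -2.27 for ENO1, -0.33 for ST14, -1.93 for ITGB1 and -1.63 for CTSL.

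CB-6644 called 0 listed genes in T>C reads by edgeR in either line or at 12 h, with 1 at an unadjusted p under 0.05 and 0 called by DESeq2 in each of the 3 contrasts. Among the listed genes of smallest p were CTSB (0.41 ± 0.13, adjusted p = 0.98) in AsPC-1 at 4 h, ENO1 (-0.56 ± 0.30, adjusted p = 0.998) at 12 h, and CTSL (-0.45 ± 0.19, adjusted p = 0.994) in T3M-4. In labelled share 4 of 15 listed genes fell in AsPC-1 at 4 h, beside 1.41% of all genes and a median log2 odds of -0.27 over all genes, and the share of whole libraries was lower too, as given with PLAT. Among the 4 were the keratin KRT8 (log2 odds -0.57 ± 0.08), the annexin A2 partner S100A10 (-0.54 ± 0.09) and ITGB1 (-0.43 ± 0.08), with adjusted p from 0.00919 to 0.02.

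Between lines 9 of 15 listed genes were called in T>C reads, 3 higher in T3M-4 and 6 lower, beside 48.4% of all genes. The 6 of smallest p were ITGB1 (-2.41 ± 0.24), the integrin chain ITGAV (-2.42 ± 0.31), S100A10 (-1.27 ± 0.16), KRT8 (-2.14 ± 0.42), ENO1 (1.398 ± 0.29) and the plasminogen receptor PLGRKT (2.05 ± 0.54), with adjusted p from 1.32e-05 to 0.00836. S100A10 was thus lower in T3M-4, where ANXA2 was higher. After dTAG, given as a description, S100A10 stood at -0.28 ± 0.16 in AsPC-1 and -0.74 ± 0.20 in T3M-4, and KRT8 at -0.53 ± 0.19 and -1.49 ± 0.52.

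Likeness was measured by Pearson's r of T>C log2 CPM over the 12 group means, with each line centred, among 15030 genes. These points share libraries and scaling, and the values describe the groups only. The genes nearest to PLAT were IGSF9B (r = 0.914), ADAM15 (0.903) and RALA (0.901). PLAUR was nearest to SEMA3B (0.989), EPHA2 (0.987) and RCOR1 (0.979), SERPINE2 to SOD1 (0.988), RPLP0 (0.984) and PARP1 (0.983), and ANXA2 to ALDH3A1 (0.969), DALRD3 (0.928) and CAPG (0.92). SERPINB2 is left out, since it had next to no reads in AsPC-1. For PLAU the nearest were KMT5AP1, ZNF629 and SPDL1, all at 0.991. None of these genes is a member or a listed gene of the system.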

How the data were processed

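The authors made 3′ end libraries, counted reads with slamdunk at its default settings over 3′UTR exons of GENCODE v44 on hg38, and summed them per gene. Whole-number counts, not normalized, were deposited for T>C reads and for all reads of 29794 genes. For dTAG 3.1 of AsPC-1 only T>C counts were used here, so all reads and labelled shares have 9 dTAG libraries in AsPC-1. Unnamed columns with values numbered 0. Totals per library are given with the results, and counting error limits low counts.

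Counts were fitted as deposited with edgeR 4.0.16 (filterByExpr, TMM, glmQLFit, glmQLFTest) in R 4.3.3, with the libraries of the groups compared in each fit, interaction terms for differences between lines, and Benjamini-Hochberg adjustment over all genes tested at 0.05. SE is |log2 fold change| over the root of the F statistic. CPM in the text use 1 TMM scaling over all 62 libraries. The labelled share was tested in edgeR as T>C against other reads of the same library, for genes with at least 10 summed reads of each kind, and is given as log2 odds. DESeq2 1.42.0 was an alternative. The scripts were tested on simulated data.

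The members, the list of other genes and the markers were chosen with earlier results of these data known. Results of 1 listed gene are not reported here. The genes named were the members, listed genes with an adjusted p under 0.05 (at most 6 a contrast by smallest p, and with none called the 2 of smallest p), the treatment targets, and the 3 genes of highest likeness to each member, left out for SERPINB2. Alternatives were the other normalizations, no low-count filter and the replicate number as a block. Batches and experiments were also fitted alone, and each library was left out in turn. Deviations of same-numbered libraries from their group means correlated in every pair for dTAG in AsPC-1 (r from 0.264 to 0.544) and T3M-4 (0.167 to 0.453). They did so too for CB-6644 in T3M-4 (0.163 to 0.435) and at 12 h (0.33 to 0.65). Such libraries also share an experiment number at 4 h and a library set at 12 h, and differently numbered libraries were not compared. The correlation therefore cannot show that a number pairs libraries. The labels do not say what a number shares.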

Additional observations from a re-analysis of the deposited data

Results flagged for a closer look

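Within 135 groups of 4 to 10 libraries tested, 11 had a lowest or highest library set apart from the others by Dixon's criterion, where chance gives 6.75. Of these, 5 are the SERPINB2 T>C CPM of AsPC-1 libraries that also hold reads of T3M-4 genes, at 0.766 in dTAG 3.2, 0.989 in NEG 3.2, 0.364 in CB-6644 12 h 2, 0.202 in DMSO 12 h 2 and 5.92 in NVP-2 1.2, with every other library of each group at 0. In AsPC-1 the CB-6644 4 h library 1.1 had 2530 ANXA2 T>C CPM, with the next at 1628, and its PLAUR labelled share 40.6%, with the next at 32.1%. In T3M-4 the CB-6644 library 1.1, a different library, had a PLAU labelled share of 34.1%, with the next at 29.3%, and an ANXA2 labelled share of 5.38%, with the next at 4.75%. SERPINE2 had 38.2 T>C CPM in CB-6644 2.2 of T3M-4, with the next at 13.4, and a labelled share of 7.06% in dTAG 3.3 of AsPC-1, with the next at 9.58%.

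The NVP-2 effect on SERPINB2 differed between lines by an interaction term of -9.18 on the log2 scale (edgeR, adjusted p = 0.0143). It rests on 13 T>C reads in 1 AsPC-1 library, and without that library the term was -2.30 (adjusted p = 1).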

How the results depend on the processing

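Of the alternative values computed for single members, 2014 were counted as unchanged, 34 lost a call, 9 gained one, 7 values without a test moved by more than the larger SD of the groups and 5 reversed. Unchanged means the same side of the threshold or, for values without a test, a move under that SD. A change of sign counted as reversed only where a call was involved, so a value without a call could change sign and count as unchanged. Counts of members called stayed within 1.5 times in 248 alternatives and moved in 11. All 5 reversals came from setting T>C counts after NVP-2 against all reads: ANXA2 to -2.36 and SERPINE2 to -1.92 in AsPC-1, and ANXA2 to -2.58, PLAT to -2.21 and SERPINE2 to -0.21 in T3M-4, where the members called rose from 3 to 5. That scaling contains the drop of labelled reads itself. PLAT after dTAG in AsPC-1 was -0.76 in experiment 2 alone and -2.71 in experiment 3, which is also batch 2 alone; the cause was not tested. Leaving out 1 library gave 0 to 3 members called in labelled share for CB-6644 in AsPC-1 at 4 h, 2 to 3 in T>C reads for NVP-2 in AsPC-1, and 0 to 1 for the line difference of the NVP-2 effect, which was also 0 without the libraries that hold reads of T3M-4 genes. With the replicate block PLAT after dTAG was -2.06 ± 0.21 in AsPC-1 and -0.29 ± 0.12 in T3M-4, and the block changed no member's call in the contrasts tested. For CB-6644 at 4 h in AsPC-1 (r from -0.0826 to 0.472) and NVP-2 in T3M-4 (0.079 to 0.366) the numbers did not correlate in every pair. Members called with the block were 0 and 3 in these contrasts. In every contrast the block marks a shared number only. Over all genes, calls after dTAG numbered 281 without the block and 867 with it in AsPC-1, and 112 and 298 in T3M-4. PLAU in T3M-4 had 0 to 14 T>C reads a library after NVP-2, and depth limits its share there.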
